A study of Homo sapiens with 4 samples.

Results

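The genes described here encode the general splicing machinery: the SR proteins and their relatives TRA2A and TRA2B, the hnRNP proteins, the Sm ring and U1 snRNP proteins, the U2 factors SF3A, SF3B and U2AF, the core factors PRPF8 and PRPF19, and the CLK kinases. They were chosen by gene symbol from a fixed list of 50 genes. All 50 were found among the 55765 gene symbols of the count table, and all 50 passed the filter on low counts. RNA came from SK-N-BE(2)C cells, a long-cultured line derived from neuroblastoma, a childhood tumour of the sympathetic nervous system, that carries extra copies of MYCN. In 1 group the cells received ATRA (all-trans retinoic acid, a vitamin A metabolite that induces differentiation of such cells) at 10 µM, in the other its solvent ethanol, in both cases over 144 h. There were 2 libraries per group, called ATRA 1 and 2 and ethanol 1 and 2 after the numbers in their titles (titles without a number are called 1). No label states that the libraries of 1 group derive from independent cultures, so p-values here reflect only how these samples vary, possibly for technical reasons.

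Pre-mRNA splicing is carried out by the spliceosome, which is built on each intron from small nuclear ribonucleoproteins (snRNPs). SR proteins bind exonic sequences and recruit the U1 and U2 snRNPs, hnRNP proteins coat nascent RNA and often block the use of a splice site, and CLK kinases phosphorylate the SR proteins and so control their release from nuclear speckles. Many SR and hnRNP genes regulate themselves through alternative exons that send the transcript to decay. The values below are read counts per gene, which do not separate productive from decaying isoforms.

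Sequencing depth lay between 12850462 and 19883465 counts per library, and a splicing factor gene had between 216 and 23756 counts in a library. The retinoid targets CYP26A1, RARB and DHRS3 all rose with ATRA (edgeR quasi-likelihood, adjusted p 0.0181, 0.0319 and 0.041); CYP26A1 had 139.9 and 267.2 CPM (counts scaled to the TMM-adjusted library size) with ATRA and no read with ethanol. All 7 neuroblastoma markers passed the filter, and the test called 0 of them. HAND2 and ISL1 were present in all libraries at 334.5 to 442.4 and 67.4 to 81.7 CPM. DBH (47.3 to 200.6 CPM), TH (40.03 to 97.4), STMN2 (544.5 to 2031) and GAP43 (114.1 to 313.8) varied more. By log2 fold change 5 of the 7, MYCN included, were below 0 and 2, STMN2 and GAP43, above. Of 8 markers of other cells 3 passed the filter; LYZ had no read, and the 8 summed to 25.7 and 7.12 CPM with ATRA against 2.62 and 1.78 CPM with ethanol, mostly COL1A1 in the ATRA libraries. Libraries also parted by title number: the share of mitochondrial ribosomal RNA was 2.49% in ATRA 1 and 5.96% in ethanol 1, but 0.130% in ATRA 2 and 0.0291% in ethanol 2.

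Promoter sequences are shown for 4 of the genes: SNRPB and HNRNPD, which had the lowest log2 fold changes among the snRNP and the hnRNP genes, SF3B1, whose level was the same in both groups, and CLK4, which was higher in both ATRA libraries. Each run is the 200 bases before the RefSeq transcription start on build GRCh38.p14, all on the minus strand, read 5′ to 3′ along the gene. Capitals mark the E-box CACGTG, which MYC family proteins can bind, and the ETS motif CCGGAAG. Read on the opposite strand, as in HNRNPD, that motif is CTTCCGG. All 4 promoters shown carry at least 1 of these motifs. In the longer windows described below, 8 of 45 genes have the E-box and 14 the ETS motif. CLK1, also higher in both ATRA libraries, has neither there. The reads were counted on hg19, so these positions name the promoters and not the counted features.
SNRPB, chr20:2470790-2470989: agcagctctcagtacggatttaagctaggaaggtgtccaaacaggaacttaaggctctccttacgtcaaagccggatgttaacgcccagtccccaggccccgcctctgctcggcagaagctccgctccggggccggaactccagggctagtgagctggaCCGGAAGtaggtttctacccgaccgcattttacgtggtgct
HNRNPD, chr4:82373992-82374191: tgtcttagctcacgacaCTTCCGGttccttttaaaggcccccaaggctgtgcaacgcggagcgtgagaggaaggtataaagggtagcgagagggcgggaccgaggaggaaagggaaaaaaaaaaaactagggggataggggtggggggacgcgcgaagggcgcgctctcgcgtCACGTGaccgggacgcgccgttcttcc
SF3B1, chr2:197435094-197435293: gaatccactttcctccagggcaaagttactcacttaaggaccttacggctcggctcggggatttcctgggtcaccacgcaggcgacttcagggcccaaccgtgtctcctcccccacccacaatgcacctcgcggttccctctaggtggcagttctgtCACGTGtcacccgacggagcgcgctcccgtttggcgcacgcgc
CLK4, chr5:178627051-178627250: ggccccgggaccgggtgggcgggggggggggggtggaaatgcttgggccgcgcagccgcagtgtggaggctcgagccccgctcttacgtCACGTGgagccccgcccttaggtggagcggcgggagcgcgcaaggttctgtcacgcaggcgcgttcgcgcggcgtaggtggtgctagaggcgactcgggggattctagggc

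Most splicing factor genes had lower counts with ATRA, by modest amounts. The log2 fold change of ATRA over ethanol was below 0 for 44 of the 50 genes, against 49.2% of all genes tested, and its median was -0.44 against 0.01 over all 18900 genes tested. No gene of the 50 passed the test over all genes (edgeR quasi-likelihood, Benjamini-Hochberg adjusted p under 0.05; lowest adjusted p 0.133), where 0.698% of all genes did (0.153% lower and 0.545% higher). At an unadjusted p under 0.05 there were 11 lower and 0 higher, where 6.49% and 9.43% of all genes were lower and higher (15.9% in all). DESeq2 called SNRPB and SNRPE lower (2.89% of all genes called lower, 7.92% in either direction) and limma-voom called none of the 50 (0.265%).

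In 27 of the 50 genes both ATRA libraries lay below both ethanol libraries, a pattern that 21.7% of all genes tested showed. In 3 genes, HNRNPA0, CLK1 and CLK4, both ATRA libraries lay above both ethanol libraries (23.8% of all genes). Compared only between libraries of the same number, 44 genes were lower with ATRA in both (35.3% of all genes), 4 were higher in both (38.3%) and 2, HNRNPH2 and SF3B1, differed in sign. The median log2 difference was -0.39 within number 1 and -0.50 within number 2. When 1 library at a time was left out, the log2 fold change moved by over 1.5 times in 36 of the 50 genes. It did not in 14: SRSF1, SRSF2, SRSF3, SRSF7, HNRNPA2B1, HNRNPA3, HNRNPF, HNRNPM, SNRPA, SNRPB, SNRPD1, SNRPE, SNRPG and U2AF1. That measure is a ratio, so a small log2 fold change exceeds it with a small shift. HNRNPA0, at -0.04 to 0.19 without 1 library, counted as moved, while SNRPG, at -0.97 to -0.46, did not. The 14 are thus not the genes with the smallest shifts. Together the 50 genes took 0.750% and 0.984% of all counts in ATRA 1 and 2 and 1.04% and 1.31% in ethanol 1 and 2. In bulk RNA, fewer cells of a kind and less RNA per cell cannot be told apart.

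**Figure D1:**
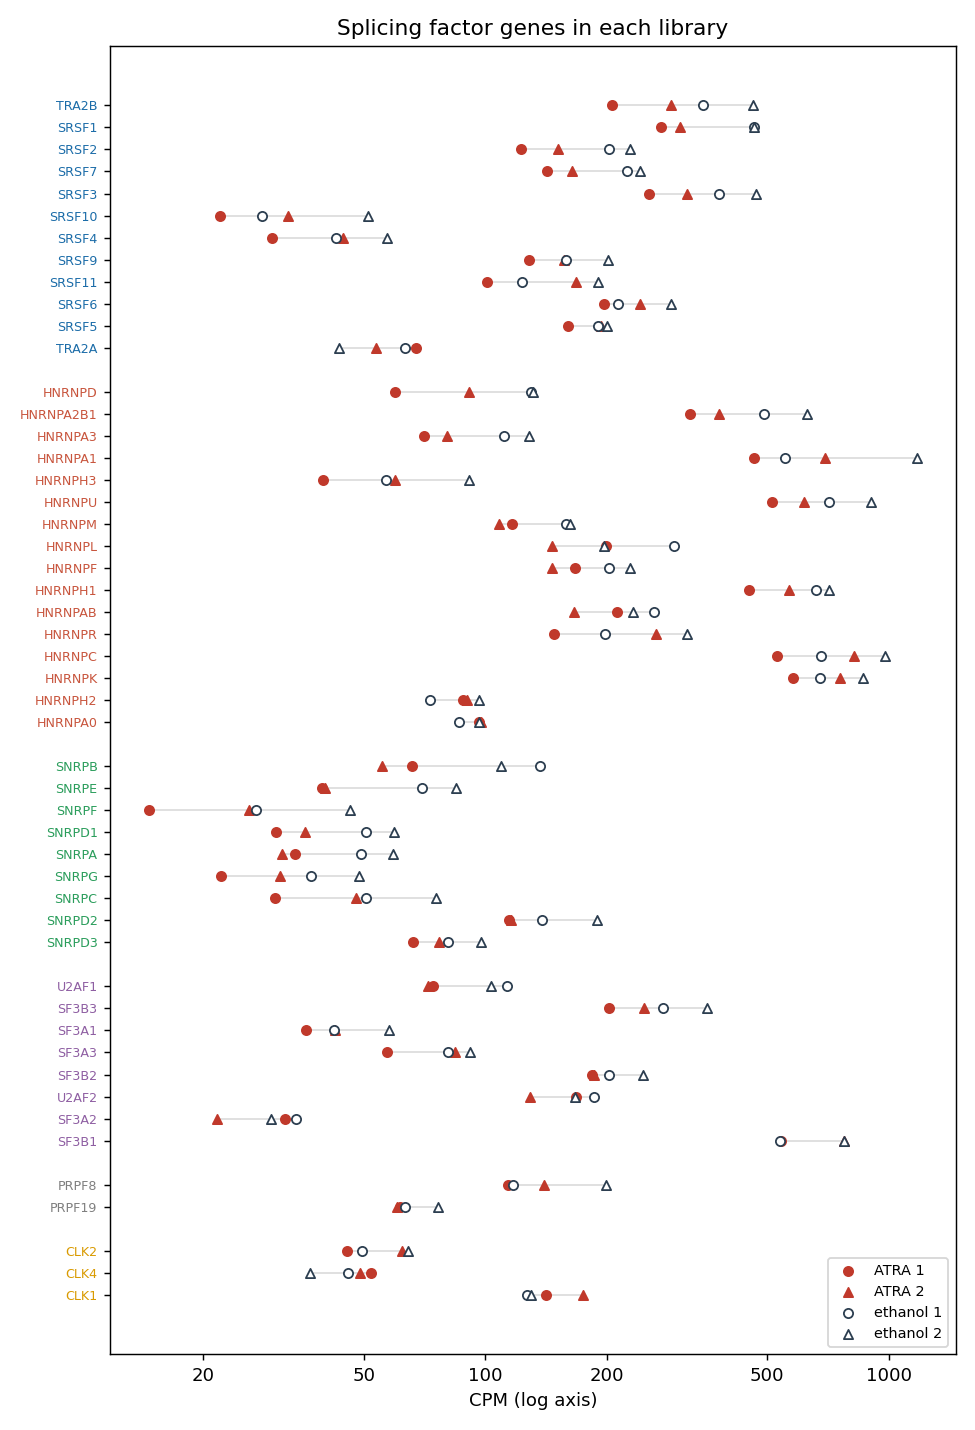
CPM of each of the 50 genes (log axis) in the 4 libraries, grouped from top to bottom as SR proteins, hnRNP proteins, Sm ring and U1 snRNP, U2 factors, PRP proteins and CLK kinases. Filled red symbols are ATRA and open symbols ethanol, circles number 1 and triangles number 2; all 9 genes of the third block have both ATRA libraries left of both ethanol libraries.

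The 9 Sm ring and U1 snRNP genes among the 50 were lower as a group. SNRPB, SNRPD1, SNRPD2, SNRPD3, SNRPE, SNRPF and SNRPG encode the ring that binds the small nuclear RNAs, and SNRPA and SNRPC encode proteins of the U1 snRNP, which recognises the 5′ splice site. For all 9 both ATRA libraries lay below both ethanol libraries (21.7% of all genes tested), and the median log2 fold change was -0.73. Their summed level was 416.8 and 460.3 CPM with ATRA against 640.1 and 769.8 CPM with ethanol. In this group 0 of 9 passed the test (edgeR quasi-likelihood). At an unadjusted p under 0.05, 4 were lower, against 6.49% of all genes. SNRNP70, a further U1 snRNP gene that is outside the 50, was near the ethanol level. It had 214 and 174 CPM with ATRA and 219 and 189 CPM with ethanol, which overlapped (log2 -0.07 ± 0.25, adjusted p 0.949, edgeR quasi-likelihood).

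SNRPB, which encodes SmB/B′, was the lowest of all 50 genes. It had 66.0 and 55.5 CPM in ATRA 1 and 2 and 136.8 and 109.6 CPM in ethanol 1 and 2, with both ATRA libraries at a lower level than either ethanol library. Its log2 fold change was -1.02 ± 0.26 (SE; adjusted p 0.133, edgeR quasi-likelihood), with -1.05 and -0.98 within numbers 1 and 2. DESeq2 gave adjusted p 0.0253 for SNRPB, and edgeR with every gene of at least 1 count gave 0.0454 (4.88% of genes called in that setting).

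SNRPE, the ring subunit SmE, had 39.5 and 40.02 CPM with ATRA and 69.8 and 84.5 CPM with ethanol. The ATRA libraries differed by 0.02 on the log2 scale, far less than the distance to ethanol, and the log2 fold change was -0.96 ± 0.24 (adjusted p 0.135, edgeR quasi-likelihood; 0.0445 with DESeq2). Reads on the 9 pseudogene rows named after SNRPE came to between 1.20% and 2.64% of its own counts.

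SNRPF had 14.6 and 26.02 CPM with ATRA and 26.9 and 46.2 CPM with ethanol. Its groups nearly met, since ATRA 2 stood next to ethanol 1, and its log2 fold change of -0.85 ± 0.41 had a wider error than those of SNRPB and SNRPE. The library numbered 2 was higher than the library numbered 1 by 0.83 with ATRA and 0.78 with ethanol, about as much as the gap between treatments.

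At the other end of the group, SNRPD3 had 66.3 and 76.8 CPM with ATRA and 81.1 and 97.8 CPM with ethanol (log2 -0.32 ± 0.25). SNRPD2 had 114.3 and 116.1 CPM with ATRA and 138.3 and 189.1 CPM with ethanol (log2 -0.51 ± 0.26). SNRPC had 30.1 and 47.9 CPM with ATRA and 50.5 and 75.4 CPM with ethanol (log2 -0.69 ± 0.34; -0.36 without ethanol replicate 2). None of these genes overlapped between groups, but in SNRPD3 and SNRPC the nearest ATRA and ethanol libraries stood close together. SNRPA, SNRPD1 and SNRPG had log2 fold changes of -0.73, -0.74 and -0.69. The 14 pseudogene rows named after SNRPG held 9.82% and 14.7% as many reads as SNRPG itself in ATRA 1 and 2 and 11.25% and 13.54% in ethanol 1 and 2.

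Among the SR proteins, 11 of 12 genes had a log2 fold change below 0 and 6 were lower without overlap (21.7% of all genes tested). The median was -0.48, and the summed level was 1703 and 2118 CPM with ATRA against 2438 and 2897 CPM with ethanol. The test called 0 of 12 (edgeR quasi-likelihood). At an unadjusted p under 0.05, 3 were lower, against 6.49% of all genes.

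TRA2B, a splicing activator that binds GAA-rich exonic enhancers, had 206.0 and 289.5 CPM with ATRA and 347.1 and 461.1 CPM with ethanol. The groups did not overlap, and its log2 fold change was -0.71 ± 0.29 (adjusted p 0.324, edgeR quasi-likelihood). SRSF1, the founding SR protein and a known oncogenic splicing factor, had 272.2 and 304.5 CPM with ATRA and 463.2 and 463.0 CPM with ethanol. The ethanol libraries of SRSF1 were nearly equal and both ATRA libraries lay well below them (log2 -0.68 ± 0.24, adjusted p 0.237, edgeR quasi-likelihood). SRSF2, which binds both purine-rich and pyrimidine-rich exonic sequences, had 122.9 and 151.6 CPM with ATRA and 203.2 and 228.8 CPM with ethanol (log2 -0.65 ± 0.25). An exon of SRSF2 overlaps MFSD11 on the opposite strand. SRSF9, HNRNPA2B1, SNRPD3, SNRPF, SF3A1 and SF3A2 also have such an overlap with another gene. The strand setting of the counting is not given in the sources used here.

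TRA2A, the close relative of TRA2B, was the only gene of these 12 with a value above 0. It had 67.5 and 53.5 CPM with ATRA and 63.1 and 43.4 CPM with ethanol, and the groups overlapped (log2 0.19 ± 0.29); without ethanol replicate 2 the value was -0.05. The ratio of TRA2B to TRA2A counts within a library, which no scaling affects, was 3.05 and 5.41 with ATRA and 5.50 and 10.6 with ethanol. That ratio was lower with ATRA by 0.85 and 0.98 on the log2 scale within numbers 1 and 2, although ATRA 2 and ethanol 1 had almost the same value. The pair was chosen after its values were seen and does not say which of the genes differed. SRSF8 and SRSF12, SR genes outside the 50, were also above 0, at 0.49 ± 0.26 and 0.57 ± 0.35. Both had the 2 ATRA libraries above the 2 ethanol libraries. In their list of 17 other SR-related genes, 12 were below 0 and 5 above.

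SRSF5 and SRSF6 were close to the ethanol level. SRSF5 had 160.4 and 193.5 CPM with ATRA and 190.8 and 201.0 CPM with ethanol (log2 -0.15 ± 0.24). SRSF6 had 196.6 and 241.9 CPM with ATRA and 213.9 and 288.1 CPM with ethanol (log2 -0.20 ± 0.27). In both genes ATRA 2 exceeded ethanol 1, so the groups overlapped. The other SR genes lay between: SRSF7, which takes part in splicing and mRNA export, was at -0.61, SRSF3 at -0.57, SRSF10 at -0.54, SRSF4 at -0.43, SRSF9 at -0.34 and SRSF11 at -0.23. SRSF7, SRSF3 and SRSF9 did not overlap between groups, while SRSF4, SRSF10 and SRSF11 did. Without ethanol replicate 2 the value was -0.021 for SRSF10, -0.19 for SRSF4 and -0.14 for SRSF9.

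**Figure D2:**
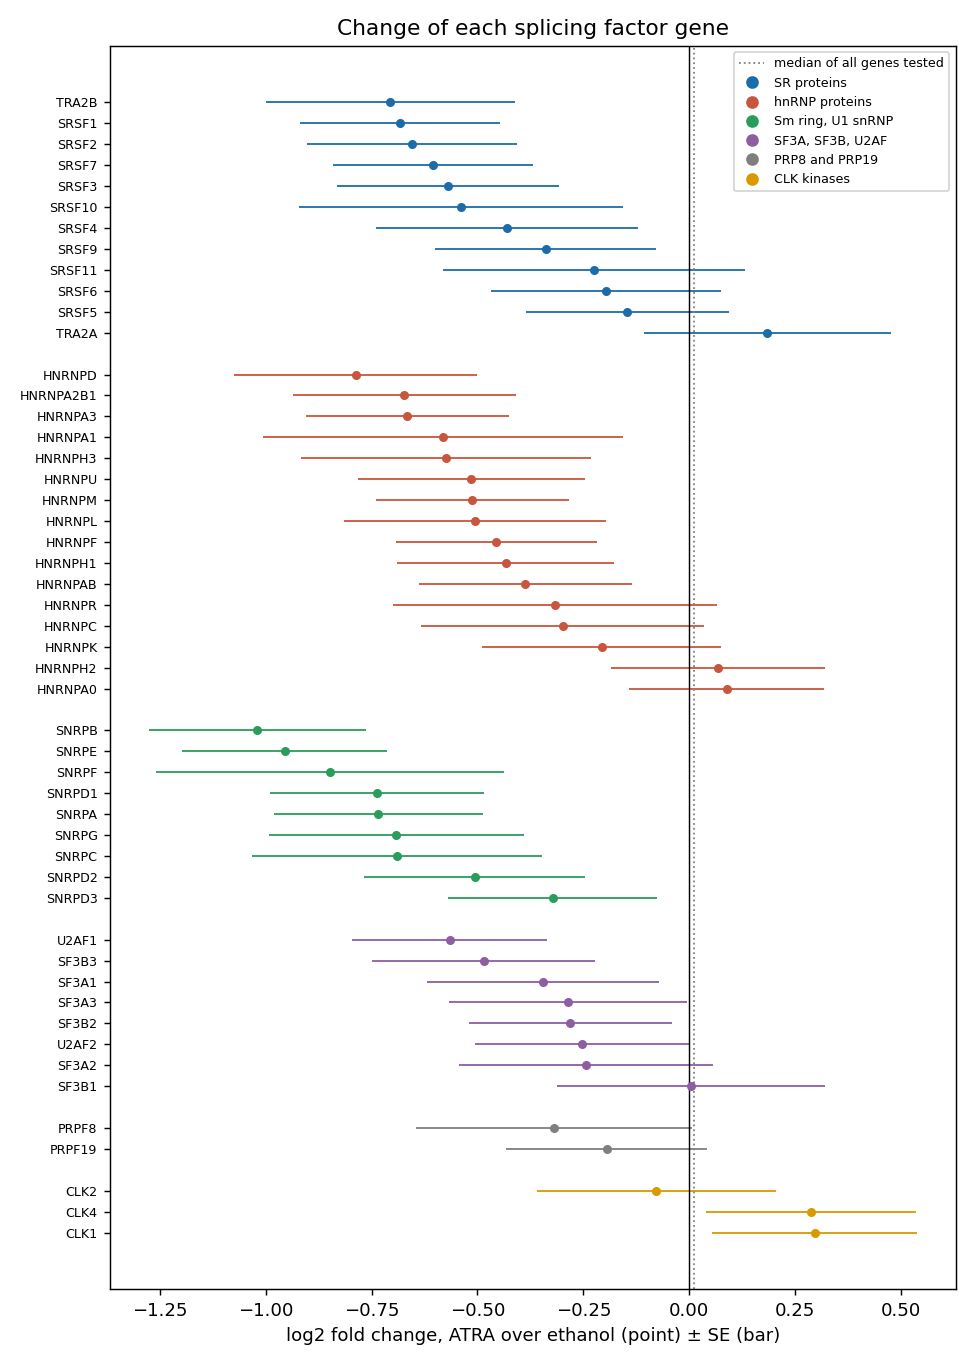
Log2 fold change of ATRA over ethanol for each gene (points) with its standard error (bars), by role group. The 9 Sm ring and U1 snRNP genes lie between -1.02 and -0.32, while CLK1, CLK4, TRA2A, HNRNPA0, HNRNPH2 and SF3B1 lie above 0; the dotted line is the median of all genes tested, 0.01.

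The hnRNP genes had a median log2 fold change of -0.48, with 14 of 16 below 0. Both ATRA libraries lay below both ethanol libraries in 8 of them and above in HNRNPA0 (21.7% and 23.8% of all genes tested). Their summed level was 4057 and 5086 CPM with ATRA against 5347 and 6948 CPM with ethanol, so ATRA 2 was close to ethanol 1. The test called 0 of 16 (edgeR quasi-likelihood). At an unadjusted p under 0.05, 3 were lower, against 6.49% of all genes.

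HNRNPD, also known as AUF1, which binds AU-rich elements and affects mRNA decay, had 59.9 and 91.3 CPM with ATRA and 129.7 and 131.5 CPM with ethanol. The ethanol libraries were nearly equal while the ATRA libraries differed from each other by 0.61 on the log2 scale; the log2 fold change was -0.79 ± 0.29 (adjusted p 0.262, edgeR quasi-likelihood). HNRNPA2B1, a relative of HNRNPA1 that binds UAG-containing motifs, had 321.3 and 380.0 CPM with ATRA and 491.4 and 626.7 CPM with ethanol (log2 -0.67 ± 0.26). HNRNPA3 had 70.6 and 80.3 CPM with ATRA and 111.3 and 128.2 CPM with ethanol (log2 -0.67 ± 0.24). In all 3 genes the groups stood apart.

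HNRNPA1, which represses splice sites and is among the best studied hnRNP proteins, had the widest standard error of the 50. It had 463.8 and 694.1 CPM with ATRA and 555.3 and 1177 CPM with ethanol, so ATRA 2 exceeded ethanol 1. Its log2 fold change was -0.58 ± 0.43, and 0.08 without ethanol replicate 2. The 75 pseudogene rows named after HNRNPA1 held between 3.06% and 4.41% as many reads as HNRNPA1 itself. How reads that match several places were counted is not given in the sources used here. Such shares, for HNRNPA1 as for SNRPE and SNRPG, thus do not show how many shared reads a gene lost.

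HNRNPA0, HNRNPH2 and HNRNPK had the highest values of the hnRNP genes. HNRNPA0 had 96.7 and 97.6 CPM with ATRA and 86.2 and 96.4 CPM with ethanol, groups that did not overlap by a very small margin (log2 0.09 ± 0.23; -0.04 without ethanol replicate 1). HNRNPH2 had 88.1 and 90.0 CPM with ATRA between 73.1 and 96.6 CPM with ethanol (log2 0.07 ± 0.25; -0.16 without ethanol replicate 1). HNRNPK, a protein that binds C-rich RNA and DNA through KH domains, had 579.1 and 757.1 CPM with ATRA and 676.3 and 865.9 CPM with ethanol, which overlapped (log2 -0.21 ± 0.28). The related genes HNRNPH1 and HNRNPF, whose proteins bind G-rich runs, were at -0.43 and -0.46 without overlap, and HNRNPH3 was at -0.58 with overlap (-0.18 without ethanol replicate 2 and -0.92 without ethanol replicate 1).

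HNRNPM was at -0.51, HNRNPU, which encodes a scaffold attachment factor, at -0.51, and HNRNPAB at -0.39, all without overlap between groups. HNRNPL, which binds CA repeats, was at -0.51, HNRNPR at -0.32 and HNRNPC, which binds uridine tracts and limits exonisation of Alu elements, at -0.30, and these overlapped.

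The U2 factors were nearer to the ethanol level, with a median log2 fold change of -0.28 over 8 genes. These proteins recognise the 3′ end of the intron: U2AF1 reads the AG at the splice site, U2AF2 the polypyrimidine tract, and SF3A and SF3B clamp the U2 snRNP on the branch point. Both ATRA libraries lay below both ethanol libraries in 3 genes, U2AF1, SF3B2 and SF3B3 (21.7% of all genes tested). The test called 0 of 8 (edgeR quasi-likelihood). At an unadjusted p under 0.05, 1 was lower, against 6.49% of all genes.

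U2AF1 had 74.3 and 72.1 CPM with ATRA and 113.5 and 103.2 CPM with ethanol, with replicates close together and groups apart (log2 -0.57 ± 0.23, adjusted p 0.311, edgeR quasi-likelihood). Its partner U2AF2 had 167.6 and 128.9 CPM with ATRA and 185.9 and 167.4 CPM with ethanol, where ATRA 1 and ethanol 2 were level (log2 -0.25 ± 0.25). SF3B3 had 203.2 and 247.5 CPM with ATRA and 276.5 and 354.7 CPM with ethanol (log2 -0.49 ± 0.26). U2AF1 and SF3B3 stood apart between groups and U2AF2 did not; the difference between the U2AF subunits was not tested.

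SF3B1, the largest SF3B subunit and a frequent target of mutation in blood cancers, had 542.0 CPM in ATRA 1 and 537.9 CPM in ethanol 1, and 775.7 CPM in both ATRA 2 and ethanol 2. Its level thus followed the library number and not the treatment (log2 0.00 ± 0.32), and the sign of its fold change turned with the scaling. SF3A1 had 36.0 and 42.5 CPM with ATRA and 42.2 and 57.6 CPM with ethanol (log2 -0.35 ± 0.27). SF3A2 had 31.9 and 21.7 CPM with ATRA and 34.0 and 29.4 CPM with ethanol (log2 -0.24 ± 0.30). Both SF3A genes overlapped between groups. SF3A3 and SF3B2 were at -0.29 and -0.28.

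The ratio of SNRPB to SF3B1 counts, chosen after the values were seen, was 0.122 and 0.0715 with ATRA and 0.254 and 0.141 with ethanol. Within numbers 1 and 2 it was lower with ATRA by 1.06 and 0.98 on the log2 scale. Ratios of HNRNPH1 to HNRNPH2 and of HNRNPA1 to HNRNPA0 were also computed. Their log2 differences within numbers 1 and 2 were -0.82 and -0.23, and -0.43 and -0.78, so these ratios agreed less well between numbers.

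PRPF8, the scaffold at the catalytic centre of the spliceosome, had 113.7 and 139.8 CPM with ATRA and 117.0 and 199.2 CPM with ethanol. ATRA 1 and ethanol 1 were level and the gap lay in the libraries numbered 2 (log2 -0.32 ± 0.33; -0.04 and -0.51 within numbers). PRPF19, a ubiquitin ligase that gives its name to the PRP19 complex, had 61.4 and 60.4 CPM with ATRA and 63.2 and 76.2 CPM with ethanol (log2 -0.19 ± 0.24). The groups of PRPF19 did not overlap, but both ATRA libraries and ethanol 1 were close together.

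The 3 CLK kinases among the 50 genes, unlike most of the others, had values above 0 or near it. CLK1 had 141.2 and 174.5 CPM with ATRA and 126.9 and 130.1 CPM with ethanol (log2 0.30 ± 0.24, adjusted p 0.656, edgeR quasi-likelihood). CLK4 had 52.1 and 48.9 CPM with ATRA and 45.8 and 36.9 CPM with ethanol (log2 0.29 ± 0.25, adjusted p 0.679, edgeR quasi-likelihood). In both genes both ATRA libraries were above both ethanol libraries (23.8% of all genes tested). The log2 fold change stayed above 0 in all 13 alternative analyses. These reuse the same libraries, so that pattern largely fixed the sign beforehand. CLK2 had 45.5 and 62.2 CPM with ATRA and 49.5 and 64.2 CPM with ethanol, and its groups overlapped almost fully (log2 -0.08 ± 0.28). The test called 0 of these 3 kinases, and 0 had an unadjusted p under 0.05. CLK3, which is outside the 50, went the other way. It had 60.3 and 62.1 CPM with ATRA and 69.9 and 68.9 CPM with ethanol (log2 -0.18 ± 0.23), without overlap.

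The ratio of SRSF1 counts to those of CLK1, again chosen after the values were seen, was 1.93 and 1.74 with ATRA and 3.65 and 3.56 with ethanol. Replicates of a group were close for this ratio, and it was lower with ATRA by 0.92 and 1.03 on the log2 scale within numbers 1 and 2.

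**Figure D3:**
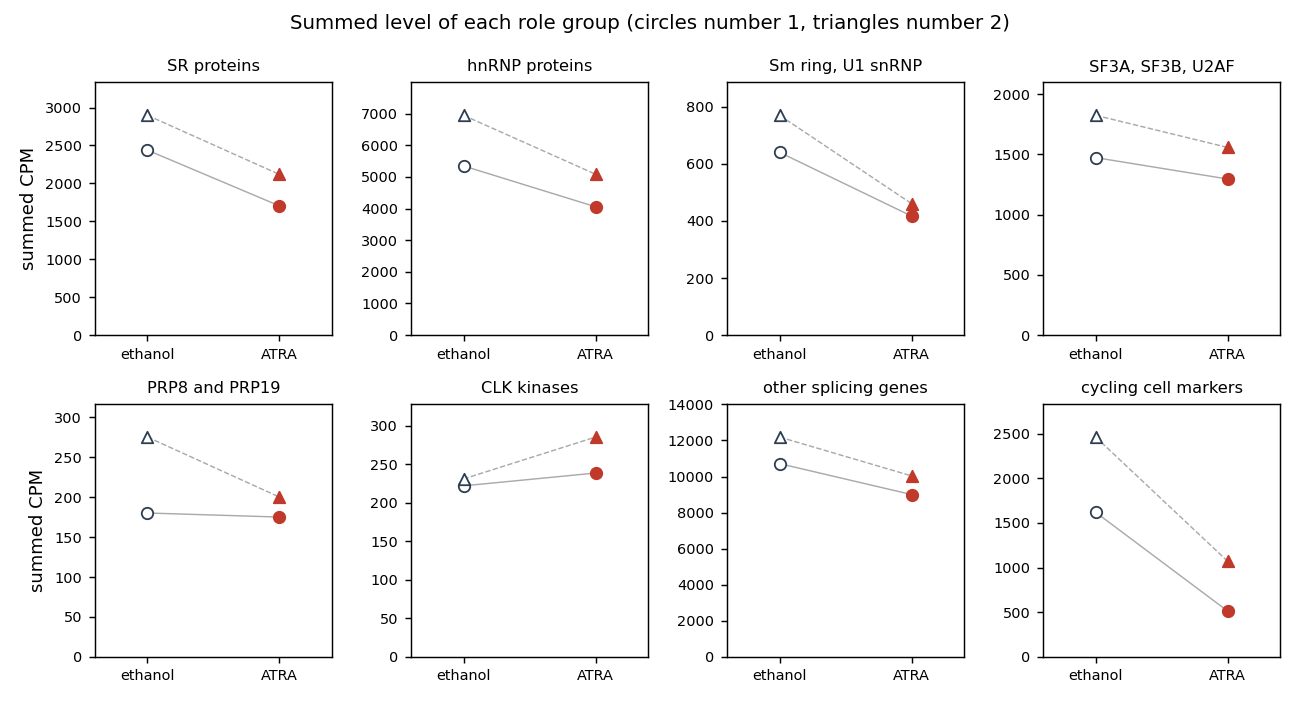
Summed CPM of each role group, of the other splicing genes and of 8 markers of cycling cells, in each library (axes start at 0; lines join libraries of the same number). The Sm ring sum is 640.1 and 769.8 CPM with ethanol and 416.8 and 460.3 CPM with ATRA, and the CLK sum is 222.2 and 231.2 against 238.8 and 285.6 CPM.

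Levels of different genes were compared per kilobase of exon (GENCODE 29 models, union of exons over a gene's transcripts). With ethanol, HNRNPK (253.2 CPM per kb), HNRNPA1 (202.3) and HNRNPH1 (184.5) were the most abundant per length, and SRSF10 (6.48), SF3A1 (9.70) and CLK4 (10.3) the least. With ATRA the order was HNRNPK (219.4 CPM per kb), HNRNPH1 (136.6) and HNRNPA1 (135.2). The spread across the machinery was thus far wider than any difference between treatments in a gene, the lowest log2 fold change being -1.02. Exons in the union that these cells do not use lower a gene's value, and their part in the spread was not tested.

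Library number was a second source of spread. In 37 of the 50 genes the library numbered 2 was higher than that numbered 1 in both groups, against 37% of all genes tested. The median log2 gap between numbers was 0.27 with ATRA and 0.28 with ethanol. In 20 genes the mean gap between numbers exceeded the mean gap between treatments (49.5% of all genes), and none of these 20 was an Sm ring or U1 snRNP gene. HNRNPR had 148.2 and 264.7 CPM in ATRA 1 and 2 and 198.2 and 316.0 CPM in ethanol 1 and 2. In HNRNPR each library numbered 2 was well above both libraries numbered 1. The share of mitochondrial ribosomal RNA moved with the number too, and its part in these gaps was not tested.

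**Figure D4:**
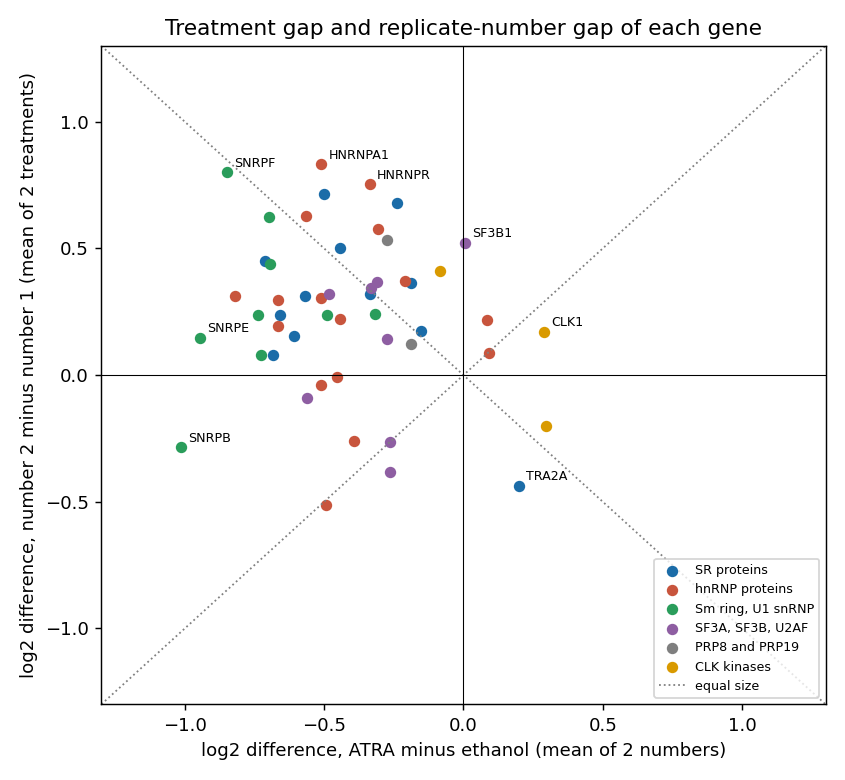
For each of the 50 genes, the mean log2 difference between ATRA and ethanol (horizontal) against the mean log2 difference between libraries numbered 2 and 1 (vertical). Genes between the dotted diagonals and the horizontal axis, 30 of 50, differ more by treatment than by number; SF3B1 lies on the vertical axis.

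Other splicing genes, from 8 lists chosen by role, were also lower in most cases, with a median nearer 0. Of 112 genes 110 passed the filter, 93 had a log2 fold change below 0 and the median was -0.31. Both ATRA libraries lay below both ethanol libraries in 49 of the 110 and above in 6 (21.7% and 23.8% of all genes tested). The test called 0 (edgeR quasi-likelihood), as did DESeq2 and limma-voom. At an unadjusted p under 0.05 there were 7 lower and 0 higher of the 110, against 6.49% and 9.43% of all genes. The count of lower genes was thus near the share over all genes.

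By list, the median was -0.46 for Sm ring assembly factors, which load the ring onto small nuclear RNA, and -0.46 for tri-snRNP and LSm genes. It was -0.37 for minor spliceosome proteins, -0.30 for other hnRNP genes, -0.27 for other U1 and U2 snRNP genes, -0.22 for the PRP19 complex, step factors and exon junction genes and -0.18 for other SR-related genes. The 4 minor or single-copy spliceosomal RNA genes had a median of -0.05, with 2 below and 2 above 0, and 3 of the 4 differed in sign between library numbers. In the assembly list GEMIN4, a subunit of the SMN complex, was lowest (log2 -0.77 ± 0.28) and STRAP highest (0.02 ± 0.34). In that list 9 of 14 genes were lower without overlap, against 21.7% of all genes tested.

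Among the other U1 and U2 genes PHF5A, a small SF3B subunit, had 23.0 and 28.4 CPM with ATRA and 45.3 and 50.6 CPM with ethanol (log2 -0.90 ± 0.26, adjusted p 0.172, edgeR quasi-likelihood), and LUC7L was highest at 0.37 ± 0.25. SNRNP25 of the minor spliceosome had 18.6 and 19.7 CPM with ATRA and 53.9 and 30.9 CPM with ethanol. Its ATRA libraries agree closely and its ethanol libraries do not (log2 -1.14 ± 0.34, adjusted p 0.184, edgeR quasi-likelihood). ZRSR2, which reads the 3′ splice site of minor introns, was highest of that list at 0.66 ± 0.35.

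In the remaining lists the lowest and highest values were -0.87 ± 0.45 for PPIH and 0.02 ± 0.23 for LSM7 (tri-snRNP and LSm), and -0.68 ± 0.40 for MAGOHB and 0.27 ± 0.26 for RBM8A (exon junction). PNN, an SR-related protein, was at -0.72 ± 0.24 and SRSF12 at 0.57 ± 0.35, and SYNCRIP was at -0.53 ± 0.26 and RALY at 0.23 ± 0.23. Of the minor spliceosomal RNAs, RNU4ATAC was at -0.31 ± 0.81 and RNU11 at 0.12 ± 0.40; all 4 were lower in the libraries numbered 2 in both groups. RNU6ATAC had 49.4 and 1.32 CPM in ATRA 1 and 2 and 48.4 and 1.49 CPM in ethanol 1 and 2, so this small structured RNA parted the libraries by number (log2 -5.11 and -4.91) and not by treatment. RNU12 was lower in number 2 by 2.16 with ATRA and 1.06 with ethanol on the log2 scale.

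Markers of cycling cells moved in the same direction as the splicing genes. All 8 had both ATRA libraries below both ethanol libraries (21.7% of all genes tested). Their median log2 fold change was -1.32, and their summed levels were 512.4 and 1070 CPM with ATRA against 1619 and 2462 CPM with ethanol. None of the 8 passed the test (edgeR quasi-likelihood, lowest adjusted p 0.0704). At an unadjusted p under 0.05 all 8 were lower, against 6.49% of all genes. MYCN had 2319 and 1778 CPM with ATRA and 3739 and 2910 CPM with ethanol (log2 -0.70 ± 0.31, adjusted p 0.345, edgeR quasi-likelihood). The part of either in the lower splicing factor levels was not tested.

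Promoter windows of 250 bases before to 50 bases after the start were matched in RefSeq for 45 of the 50 genes (62 windows, since some genes have several starts). Windows of the same gene can overlap, so the same site can be counted in several, as for the E-box of SF3B1 and an ETS motif of SNRPG. The E-box CACGTG was found in 14.5% of these windows and in 7.26% of all 35116 windows. Among the genes it was in CLK2, CLK4, HNRNPA3, HNRNPD, HNRNPH2, HNRNPH3, HNRNPM and SF3B1. The log2 fold changes of these 8 ran from -0.79 to 0.29 with a median of -0.30, against -0.43 for the 37 genes without it.

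The ETS motif CCGGAAG was found in 25.8% of the windows and in 10.3% of all windows, both strands searched. It was present in 5 of 8 Sm ring and U1 snRNP genes with a window, 5 of 7 U2 factor genes, 2 of 10 SR genes, 2 of 15 hnRNP genes and 0 of 3 CLK genes. The median log2 fold change was -0.44 for the 14 genes with the motif and -0.39 for the 31 without. The CCAAT box was in 33.9% of the windows against 34.6% of all, and TATAAA in 11.3% against 11.5%. The hexamer AGGTCA of retinoid receptor elements was in 1.61% against 13.8%, and the DR5 retinoic acid response element and the NRF1 motif were in none against 0.0057% and 1.24%. These are letter matches and not binding sites.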

How the data were processed

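Total RNA depleted of ribosomal RNA was made into directional libraries, per the labels' protocols. The authors deposited unnormalized read counts for each gene symbol; STAR 2.5.2b, featureCounts 1.5.1 and build hg19 are named in the submitters' processing notes. Annotation release, strand and multi-mapping options were not given in the sources used. By GENCODE 29 models, 7 of the 50 genes have an exon overlapped on the opposite strand (SRSF2, SRSF9, HNRNPA2B1, SNRPD3, SNRPF, SF3A1 and SF3A2). On the same strand 3 are overlapped (SRSF2, HNRNPA3 and HNRNPH2), and 23 have pseudogene rows.

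From the counts, ATRA was compared with ethanol in edgeR 4.0.16 (R 4.3.3): filterByExpr with a minimum count of 10, TMM, and the robust quasi-likelihood F test with treatment as the sole term (2 residual degrees of freedom). Benjamini-Hochberg adjustment covered all 18900 genes, with a threshold of 0.05, two-sided. The standard error is the size of the log2 fold change over the square root of F. Differences within a library number use log2 CPM with a prior count of 2. DESeq2 1.42.0 and limma 3.58.1 were alternatives.

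The 50 genes and the other lists were chosen with earlier results of these data known. Genes described singly are, per role group, the 3 highest and 3 lowest log2 fold changes (all of the 2 small groups) and any gene called. The highest and lowest of each other list are described too. HNRNPA1, HNRNPR, SNRNP70, SRSF8, CLK3, RNU6ATAC and RNU12 are described outside that rule. HNRNPA1 and HNRNPR, the ratios, the motifs and the promoters shown were chosen after their values were seen. Of 112 other splicing genes, SF3B6 was found under an older symbol, LSM8 had no match and LUC7L2 did not pass the filter.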

Additional observations from a re-analysis of the deposited data

How the results depend on the processing

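The test of all genes called 132 genes, 1380 under DESeq2, 1821 when genes with as few as 1 count were kept, 50 under limma-voom, and 870 to 1442 without 1 library. Of the 50 splicing factor genes it called 0, against 2 with DESeq2 (SNRPB and SNRPE), 1 when genes with as few as 1 count were kept (SNRPB) and 0 without any 1 library; of the other splicing genes it called 0, against 1 in that setting and 0 to 1 without 1 library (RNU12 without ATRA replicate 1, SNRNP25 without ethanol replicate 2). With the replicate number as a block, edgeR called 4098 genes in all, 21 of the 50 lower and 0 higher (9.38% and 12.3% of all genes) and 29 other splicing genes (28 lower, 1 higher); the 21 included 7 of 9 Sm ring and U1 snRNP genes. DESeq2 with that block called 2727 genes (16% of all; 7.03% lower and 8.95% higher), 14 of the 50 and 10 other splicing genes, all of these lower. Deviations from the group means of same-numbered libraries correlated across all 18900 genes (r = 0.632; genes are not independent replicates), but the labels give no reason to pair the numbers beyond the titles.

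The median log2 fold change of the 50 genes was below 0 in every alternative, between -0.61 (without ATRA replicate 2) and -0.26 (without ethanol replicate 2). The 30 genes whose groups did not overlap became 31 to 49 without 1 library, where fewer values must part and 69.7% to 74.3% of all genes did not overlap: 29 lower and 2 higher without ATRA replicate 1, 29 and 5 without ethanol replicate 2, 43 and 3 without ATRA replicate 2 and 46 and 3 without ethanol replicate 1. In these settings 35.2%, 37.4%, 35% and 35.7% of all genes were lower. Of the 36 values that moved by over 1.5 times without 1 library, 24 kept their sign. Those that turned sign ran from -0.44 to 0.052 for SRSF6, -0.65 to 0.14 for SRSF11, -0.048 to 0.44 for TRA2A, -0.035 to 0.19 for HNRNPA0, -1.07 to 0.077 for HNRNPA1, -0.66 to 0.0057 for HNRNPC, -0.16 to 0.30 for HNRNPH2, -0.81 to 0.077 for HNRNPR, -0.55 to 0.0019 for SF3A2, -0.29 to 0.31 for SF3B1, -0.70 to 0.13 for PRPF8 and -0.33 to 0.14 for CLK2. SF3B1 was also at -0.016 under DESeq2, -0.032 with library size alone, -0.038 without structured RNA, -0.049 when genes with as few as 1 count were kept and -0.011 under DESeq2 with the block. The cause was not tested.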
